A study of Mus musculus with 4 samples.

Results

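Receptors for hypothalamic neuropeptides were described in nuclei of the aged mouse hypothalamus. The 10 genes are Hcrtr1 and Hcrtr2 (receptors for the orexin, or hypocretin, peptides), Npy1r, Npy2r and Npy5r (receptors for neuropeptide Y), Galr1 (a galanin receptor), Ntsr1 (a neurotensin receptor), Mchr1 (the receptor for melanin-concentrating hormone), Oxtr (the oxytocin receptor) and Avpr1a (a vasopressin receptor). They were chosen by symbol and make up 10 of the 32285 genes in the files. The study set transplanted mice, which had received hypothalamic stem cells made from human pluripotent stem cells, beside control mice, all about 18 months old. Nuclei came from whole frozen hypothalamus and were profiled by single-nucleus RNA sequencing with a 3' droplet chemistry that counts each captured RNA molecule once by a unique molecular identifier (UMI). There were 2 samples labelled transplanted and 2 labelled control. Some titles join a pair of animal codes, and whether nuclei were pooled from those animals is not stated; the labels name no strain, sex or number of cells.

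All 10 genes encode G protein-coupled receptors, which sit in the cell membrane and pass a peptide signal to G proteins inside the cell. The orexin, oxytocin, vasopressin and neurotensin receptors of this group act mainly through phospholipase C and calcium, and the neuropeptide Y and galanin receptors mainly lower cyclic AMP and open potassium channels, so that they quiet the neuron. The peptides come from hypothalamic neurons that govern wakefulness, feeding, water balance and social behaviour, and many of the receptors lie on other hypothalamic neurons.

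The labels do not separate 2 sets of nuclei. The sample labelled transplanted replicate 1 held 4020 nuclei and that labelled control replicate 1 held 4008, and 3997 cell barcodes were in both. The sample labelled transplanted replicate 2 held 2151 nuclei and that labelled control replicate 2 held 2150, and 2144 barcodes were in both. Every other pair of samples shared 4 barcodes. Hcrtr2 had 603 UMIs under the transplanted label and 580 under the control label in the first library, and 206 under each label in the second. No effect of transplantation on a receptor can be estimated from these files. Everything that follows therefore rests on 2 distinct libraries, read from the control-labelled files, with 8779880 UMIs in library 1 and 4924563 UMIs in library 2.

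Neurons made up 2963 nuclei of library 1 and 1453 nuclei of library 2, with a median of 2245 and 2596 UMIs. Glia, with 1 cluster left unnamed that was led by Col23a1, made up 1006 and 644 nuclei, with a median of 752 and 764.5 UMIs. A further cluster of 33 and 11 nuclei was led by oligodendrocyte markers but also had 11 of 12 neuron markers high, and it was set apart after its genes were seen. Cell classes were rebuilt from clusters of these nuclei. The receptor genes themselves were left out of the clustering, and class and cluster levels are given as a description without a test.

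The start regions of 3 receptor genes are shown because the results below turn on them: Hcrtr2 held most of the receptor RNA, Npy1r came next by UMI count, and Npy5r is the neighbour of Npy1r on chromosome 8 and was found with it in single nuclei. Each sequence is the RefSeq window on build GRCm38.p6 from 250 bases before to 50 bases after the annotated start, written 5′ to 3′ on the gene's own strand, with capitals marking matches to CACGTG (the E-box core), CGTCA (the core of the cyclic AMP response element) or CCAAT on either strand. The windows are chr9:76323574-76323873 on the minus strand for Hcrtr2, chr8:66697172-66697471 on the plus strand for Npy1r and chr8:66688045-66688344 on the minus strand for Npy5r.
Hcrtr2: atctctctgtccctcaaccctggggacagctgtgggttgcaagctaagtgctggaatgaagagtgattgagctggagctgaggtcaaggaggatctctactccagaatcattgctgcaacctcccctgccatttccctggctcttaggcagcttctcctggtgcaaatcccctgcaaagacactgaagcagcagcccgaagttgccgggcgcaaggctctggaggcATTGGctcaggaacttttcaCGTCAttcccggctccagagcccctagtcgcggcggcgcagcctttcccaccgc
Npy1r: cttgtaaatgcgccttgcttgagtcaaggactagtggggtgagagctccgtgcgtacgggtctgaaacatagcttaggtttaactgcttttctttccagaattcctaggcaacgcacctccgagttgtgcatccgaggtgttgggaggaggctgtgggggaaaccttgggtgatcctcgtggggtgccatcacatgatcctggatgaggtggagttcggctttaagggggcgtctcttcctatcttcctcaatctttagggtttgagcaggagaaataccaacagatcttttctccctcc
Npy5r: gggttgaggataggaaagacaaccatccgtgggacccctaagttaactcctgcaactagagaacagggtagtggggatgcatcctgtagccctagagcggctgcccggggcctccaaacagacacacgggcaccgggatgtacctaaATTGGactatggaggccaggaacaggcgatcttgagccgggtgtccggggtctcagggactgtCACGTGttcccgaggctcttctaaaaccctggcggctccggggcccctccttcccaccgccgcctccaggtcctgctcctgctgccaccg

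The Npy5r and Npy1r windows point away from each other with 8827 bases between them and no other RefSeq gene in that stretch. CACGTG was in the Npy5r window and in 3 of the 9 receptor genes with a RefSeq window (Npy5r, Oxtr and Mchr1), against 7.15% of all 32851 windows. CGTCA was in 3 of the 9 genes, Hcrtr2 among them, against 20.8% of all windows, and CCAAT was in 4 of the 9, Hcrtr2 and Npy5r among them, against 37.4%. The Npy1r window held none of these 3 motifs, nor TATAAA (13.6% of windows) or GGGCGG (35.7% of windows). Hcrtr1 has 3 windows and the other 8 genes 1 each, and a match or its lack describes only the letters.

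Summed over the 10 genes, receptor RNA was found in neurons and was close to absent from glia. In neurons a UMI of at least 1 of the 10 receptors was found in 18.6% of nuclei in library 1 and 18.0% in library 2, against 0.497% and 0.466% of glial nuclei. The receptors summed to 887 UMIs in neurons of library 1 and 375 in neurons of library 2, against 7 UMIs among 941666 in glia of library 1 and 3 among 566233 in glia of library 2. Hcrtr2 alone gave 64.5% of the receptor UMIs in neurons of library 1 and 52.8% in library 2. Most of the rest was Npy1r and Galr1, and 272 neurons of library 1 and 152 of library 2 had a UMI of a receptor other than Hcrtr2.

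**Figure D1:**
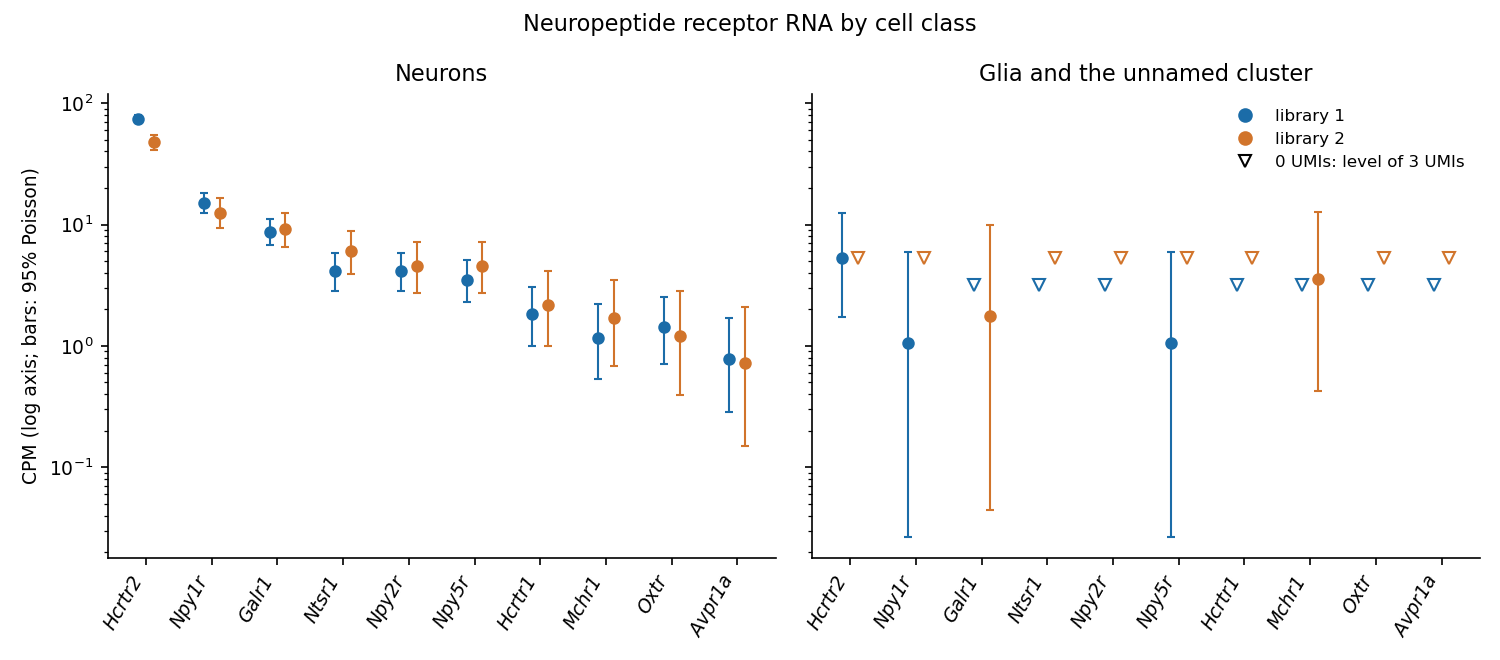
UMI counts scaled to a common total (CPM, log axis) of each receptor gene in neurons (left) and in glia with the unnamed cluster (right), 1 point per library with its 95% Poisson interval; an open triangle marks a receptor with 0 UMIs at the level that 3 UMIs would have. In neurons Hcrtr2 lies highest, at 74.1 and 47.7 CPM, and the intervals of Hcrtr1, Mchr1, Oxtr and Avpr1a overlap at the low end.

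The 2 orexin receptors lay far apart in level. Hcrtr2, the receptor through which orexins excite the wake-promoting histamine neurons, had 572 UMIs in neurons of library 1 and 198 in neurons of library 2, which is 74.1 CPM (95% Poisson interval 68.2 to 80.5) and 47.7 CPM (41.2 to 54.8). It was seen in 10.97% of neurons of library 1 and 8.88% of neurons of library 2. Among oligodendrocytes, taken here as a class that should lack it, it was seen in 0 of 370 and 0 of 284 nuclei, which allows shares with a UMI of up to 0.811% and 1.06% (exact binomial upper bounds 0.992% and 1.29%). Oligodendrocytes had fewer UMIs, with a median of 669 and 683.5, so these shares are not at equal depth. With each nucleus thinned to 500 UMIs, 2.97% and 1.90% of neurons kept a UMI of Hcrtr2 and no oligodendrocyte had one to keep. In the unnamed cluster of library 1 Hcrtr2 had 3 UMIs (24.9 CPM, 5.14 to 72.8), an interval that overlaps that of neurons. For library 2, 3 UMIs would be 94.4 CPM in microglia and 58.6 CPM in the unnamed cluster. Both lie above the neuronal level of Hcrtr2 in that library, so a lower level in these classes cannot be shown there. Intervals and limits cover counting error only.

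Hcrtr2, which had the most UMIs, was also the 1 receptor whose neuronal level differed between the libraries beyond counting error. Its level in library 1 was 1.56 times that in library 2 (95% interval of the ratio 1.32 to 1.84), and 1.39 times (1.16 to 1.65) over neurons without a UMI of the histidine decarboxylase gene Hdc. For each of the other 9 receptors, all with fewer UMIs, the interval of this ratio included 1. Over all neurons the intervals of Npy1r (0.867 to 1.71), Npy2r, Hcrtr1, Mchr1, Oxtr and Avpr1a also included 1.56. Those of Npy5r, Galr1 and Ntsr1 did not. A difference particular to Hcrtr2 is thus not shown for all receptors. The interval takes each UMI as independent, while 148 neurons held 2 or more UMIs of Hcrtr2. Each library is a single sample. The title of library 1 joins a pair of animal codes and that of library 2 has 1 code, and the part of this in the difference was not tested.

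Hcrtr1, the other orexin receptor, had 14 UMIs in neurons of library 1 (1.81 CPM) and 9 in neurons of library 2 (2.17 CPM), with no nucleus above 1 UMI and 0 UMIs in glia. Of the 14 neurons with Hcrtr1 in library 1, 7 also had Hcrtr2 (50%), against 10.8% of neurons without Hcrtr1. In library 2 it was 3 of 9 (33.3%), against 8.73%. Seen from the other gene, 2.15% and 2.33% of the Hcrtr2 neurons had Hcrtr1, against 0.265% and 0.453% of neurons without Hcrtr2. The Hcrtr1 neurons had a median of 3453.5 UMIs against 2243 in library 1 and 2330 against 2596.5 in library 2, so that they were deeper in only 1 of the 2 libraries. This pair and the next were named after the 45 receptor pairs had been seen, and nuclei of a library are not replicates, so no test is given.

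The neuropeptide Y receptors came at lower levels. Npy1r, which mediates much of the feeding response to neuropeptide Y, had 117 UMIs (15.2 CPM, 12.5 to 18.2) in neurons of library 1 and 52 UMIs (12.5 CPM, 9.35 to 16.4) in neurons of library 2, against 1 UMI and 0 UMIs in glia. Npy2r, known as a presynaptic receptor that restrains peptide release, had 32 and 19 UMIs (4.15 and 4.57 CPM). Npy5r had 27 and 19 UMIs (3.50 and 4.57 CPM), and those intervals overlap the ones of Npy2r in both libraries.

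Npy5r and Npy1r, whose start regions are printed above, were also found together in single nuclei. Of 26 neurons with Npy5r in library 1, 6 also had Npy1r (23.1%), against 3.34% of neurons without Npy5r. In library 2 it was 2 of 18 (11.1%), against 3.07%. As a share of the Npy1r neurons, 5.77% and 4.35% had Npy5r, against 0.700% and 1.14% of neurons without Npy1r. The Npy5r neurons had a median of 2385 UMIs against 2243 in library 1 and 3271 against 2590 in library 2. In both libraries the share with the partner was higher among neurons that had the first gene. For Hcrtr2 and Npy1r the shares lay close together, with Hcrtr2 in 9.62% and 8.70% of the Npy1r neurons, against 11.02% and 8.88% of neurons without Npy1r.

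Galr1, an inhibitory receptor for galanin, had 67 UMIs (8.68 CPM, 6.73 to 11.03) in neurons of library 1 and 38 (9.15 CPM, 6.47 to 12.6) in neurons of library 2. Ntsr1, the high-affinity neurotensin receptor, had 32 and 25 UMIs (4.15 and 6.02 CPM). Mchr1 had 9 and 7 UMIs (1.17 and 1.68 CPM), Oxtr 11 and 5 (1.43 and 1.20 CPM) and Avpr1a 6 and 3 (0.778 and 0.722 CPM). These 3 receptors and Hcrtr1 were each seen in under 1% of neurons, and their intervals overlapped in each library, so that they cannot be put in order at this depth. Mchr1 also had 2 UMIs in glia of library 2 (3.53 CPM), 1 in an astrocyte and 1 in an oligodendrocyte precursor. In glia 3 UMIs would be 3.19 CPM in library 1 and 5.30 CPM in library 2. Those limits lie above the neuronal levels of Mchr1, Oxtr, Avpr1a and Hcrtr1, so a lower level in glia cannot be shown for these genes. In library 2 the limit also lies above the neuronal levels of Npy2r and Npy5r, 4.57 CPM each, so the same holds for them in that library.

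The order of the genes changed when levels were divided by gene length. A longer gene can yield more captured nuclear RNA, but the part of length in the order was not tested. Per kilobase of gene span, Npy1r had the highest level at 1.57 and 1.30 CPM per kilobase, while Hcrtr2, which spans 97744 bases, had 0.758 and 0.488 CPM per kilobase and ranked 2 of 10 in library 1 and 4 of 10 in library 2. Per kilobase of the longest transcript Hcrtr2 was highest again, at 19.7 and 12.7 CPM per kilobase, against 5.05 and 4.17 for Npy1r. Galr1 was within the top 3 by every one of these scales. No source used here says whether intronic reads were counted, so neither scale can be preferred.

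RNA of some of the peptides was also found in glia. Hcrt RNA, made only by orexin neurons of the lateral hypothalamus, was seen in 4.32% and 2.20% of neurons but also in 5.14% and 3.17% of oligodendrocytes, and Pmch RNA in 4.76% and 3.51% of neurons against 2.16% and 2.46% of oligodendrocytes. Gal RNA was seen in 8.77% and 8.88% of neurons against 0.811% and 1.41% of oligodendrocytes, and Npy RNA in 1.35% and 1.86% of neurons against 0 of 370 and 1 of 284 oligodendrocytes. Avp RNA was seen in 2.90% and 5.02% of neurons against 1.08% and 2.11% of oligodendrocytes. For Oxt the shares were 1.79% and 3.03% against 0.811% and 3.87%, higher in oligodendrocytes of library 2. Nts RNA was seen in 1.62% and 3.72% of neurons against 0 of 370 and 3 of 284 oligodendrocytes. These shares are not at equal depth, as oligodendrocytes had fewer UMIs. Thinned to 500 UMIs per nucleus, Hcrt was kept in 1.32% and 0.644% of neurons against 3.51% and 2.36% of oligodendrocytes. Pmch was kept in 1.55% and 1.02% against 1.37% and 1.63%, and Oxt in 0.614% and 0.649% against 0.691% and 3.17%. Oxt was thus higher in oligodendrocytes of both libraries and Pmch in those of library 2. Gal, Npy, Avp and Nts stayed higher in neurons of both libraries. Given the peptide RNA in glia, neurons were assigned to a peptide only at 3 UMIs or more.

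Hcrtr2 stood out in neurons with Hdc, the enzyme that makes histamine, which marks the wake-promoting neurons of the tuberomammillary nucleus. In library 1, 17 neurons had 2 or more UMIs of Hdc, and their Hcrtr2 counts ran from 0 to 16 UMIs with a median of 5. In library 2 there were 4 such neurons, with 10, 5, 1 and 0 UMIs of Hcrtr2. A UMI of Hcrtr2 was thus found in 15 of 17 Hdc neurons (88.2%, exact binomial 95% interval 63.6 to 98.5) and 3 of 4 (75.0%, 19.4 to 99.4), against 10.5% and 8.72% of neurons without Hdc. Of the neurons with exactly 1 UMI of Hdc, 3 of 9 in library 1 (215 CPM) and 0 of 4 in library 2 had a UMI of Hcrtr2.

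The level of Hcrtr2 was 1112 CPM (906 to 1351) in Hdc neurons of library 1 and 957 CPM (547 to 1555) in those of library 2, against 61.1 CPM (55.7 to 66.9) and 44.1 CPM (37.9 to 51.0) in neurons without Hdc. That is 18.2-fold higher (14.5 to 22.6) in library 1 and 21.7-fold higher (12.1 to 36.2) in library 2, by counting error alone. These intervals take each UMI as independent, while single Hdc nuclei held up to 16 UMIs of Hcrtr2 in library 1 and 10 in library 2. The spread between nuclei is thus not in them. Hdc neurons were also deeper, with a median of 5016 UMIs against 2237 in library 1 and 3730 against 2590 in library 2. Thinned to 500 UMIs per nucleus, 41.7% and 30.2% of Hdc neurons kept a UMI of Hcrtr2, against 2.73% and 1.83% of neurons without Hdc. These few nuclei held 17.7% of all neuronal Hcrtr2 UMIs in library 1 and 8.08% in library 2.

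Slc18a2, the vesicular monoamine transporter that histamine neurons need, was 42.3-fold and 31.2-fold higher in the same nuclei than in neurons without Hdc. In the neuron cluster led by Meis2 and Hdc lay 16 of the 17 Hdc nuclei of library 1 and 2 of the 4 of library 2, the other two being in the cluster led by Slc32a1. Among the 54 other neuropeptide receptor genes examined, Calcrl, a subunit of the receptors for calcitonin gene-related peptide and adrenomedullin, had 64 UMIs in the Hdc neurons of library 1 and 5 in those of library 2, at 24.6 and 22.0 times its level in neurons without Hdc. Npsr1 had 5 UMIs in those of library 1, at 1.03 times, and no other gene of that list reached 5 UMIs there. Of the 10 receptors described here, Galr1 came next to Hcrtr2. Over the 16 and 4 nuclei assigned to Hdc alone it had 4 UMIs and 1 UMI. Hdc neurons did not reach the 20 nuclei per library asked for a test, so these values have none.

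**Figure D2:**
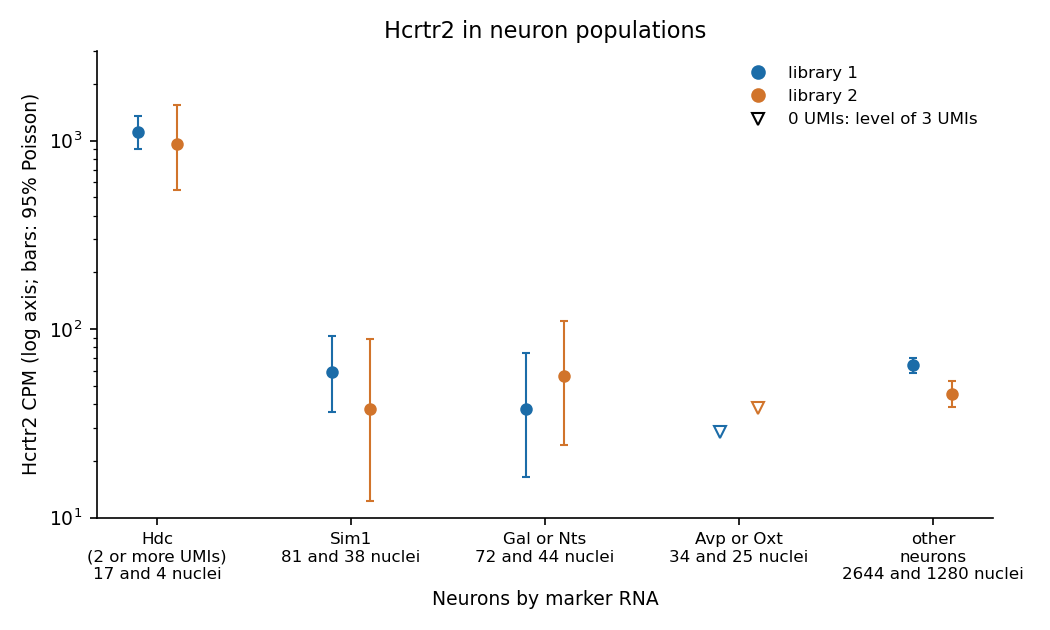
Hcrtr2 level (CPM, log axis) in neurons with marker RNA (left to right Hdc, Sim1, Gal or Nts, Avp or Oxt) and in neurons that reached no marker threshold, 1 point per library with its 95% Poisson interval and open triangles at the level of 3 UMIs where no UMI was found. Hdc neurons lie near 1000 CPM, at 1112 and 957 CPM, and Avp or Oxt neurons had 0 UMIs in both libraries.

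At the other end, Hcrtr2 was not seen in neurons that make vasopressin or oxytocin. Neurons with 3 or more UMIs of Avp and Oxt had 0 UMIs of Hcrtr2 in 34 nuclei (105166 UMIs) of library 1 and 0 in 25 nuclei (78502 UMIs) of library 2, against 64.2 and 45.5 CPM in neurons that reached no marker threshold. At the pooled level of those other neurons, 57.6 CPM, the Avp and Oxt neurons would have held 10.6 UMIs. Taking 3 UMIs over both libraries as the limit, 16.3 CPM, Hcrtr2 was at least 3.53-fold lower in Avp and Oxt neurons. It passed the test (edgeR quasi-likelihood, adjusted p = 0.00347), and 8% of the 4374 genes tested were called lower in this comparison and 13.2% in either direction. Hcrtr2 was the 1 receptor of the 10 with enough counts to pass the low-count filter there. With 0 UMIs in Avp and Oxt neurons, it entered the test only through its counts in the other groups. Only a lower level could therefore have been called.

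Of 19 marker sets, Gal or Nts and Sim1 also had 20 nuclei in each library. In neurons with galanin or neurotensin RNA, Hcrtr2 had 37.8 and 56.3 CPM against 64.2 and 45.5 CPM in other neurons (log2 difference -0.37 ± 0.39 SE, edgeR adjusted p = 0.840; 2.29% of genes called). In neurons with Sim1, a transcription factor of the paraventricular nucleus and neighbouring areas, it had 59.2 and 37.8 CPM (log2 difference -0.12 ± 0.34 SE, edgeR adjusted p = 0.987; 1.23% of genes called). Both differences lay within their error. The 2 comparisons share the other neurons with the Avp and Oxt one.

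The remaining receptors gave few UMIs in any marker population. Galr1 had 3 UMIs and 1 UMI in Avp and Oxt neurons (28.5 and 12.7 CPM) and 7 and 2 UMIs in neurons with Gal or Nts (33.1 and 14.1 CPM), against 7.72 and 8.99 CPM in other neurons. The counting intervals of the Avp and Oxt neurons, 5.88 to 83.4 and 0.323 to 71.0 CPM, include the level of the other neurons in both libraries. Those of the neurons with Gal or Nts, 13.3 to 68.2 and 1.71 to 50.9 CPM, include it in library 2 and lie above it in library 1, where the 7 UMIs came from 4 nuclei. Npy1r had 1 UMI in each library among 2 and 3 Pomc neurons, its highest level over marker sets with a UMI in both libraries. Ntsr1 had 1 UMI in each library among 5 and 3 Lhx1 neurons. By the same rule Hcrtr1, Npy2r and Avpr1a came out highest in neurons with Gal or Nts, at 1 or 2 UMIs per library, although Hcrtr1 and Npy2r had higher levels from single UMIs in smaller sets of 1 library, and Mchr1, Npy5r and Oxtr had UMIs of both libraries only in neurons outside all marker sets. Agrp or Npy neurons, 10 and 5 nuclei, had 0 UMIs of Npy1r and Npy5r, and 1 UMI of Npy2r in library 2, which at 41599 and 17427 UMIs allows levels of up to 72.1 and 172 CPM for a receptor at 0.

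Across 8 neuron clusters Hcrtr2 was low or unseen in the same clusters of both libraries, while the highest cluster differed. In library 1 its level was highest in the Meis2 and Hdc cluster, at 133 CPM. In library 2 that cluster had 46.8 CPM, below the 72.3 CPM of the Hcrt and Gal cluster. The Meis2 and Hdc cluster held 16 of the 17 Hdc nuclei of library 1 and 2 of the 4 of library 2. A UMI of Hcrtr2 was seen in 10.1% and 8.94% of its nuclei, against 10.97% and 8.88% of all neurons. The part of the Hdc nuclei in the difference between libraries was not tested. In the clusters led by Hcrt and Gal, by Hmcn2 and Lama1, and by Ebf2 and Lmx1a Hcrtr2 ran from 53.8 to 97.7 CPM. In the cluster led by Vipr2 and Prok2, genes of the suprachiasmatic clock, there were 0 UMIs among 178435 in library 1 and 1 among 112851 in library 2. The cluster led by Avp and Oxt had 0 UMIs in both libraries.

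Npy1r and Npy2r had another pattern. Both were highest, among clusters with a UMI in both libraries, in the cluster led by Hcrt, Gal and Cartpt, which also held Tbx3os1 and Corin among its leading genes. Npy1r had 31.2 and 25.4 CPM there and between 5.71 and 19.0 CPM in the other clusters where it was seen. Npy2r had 8.90 and 15.6 CPM there, from 12 and 8 UMIs, and at most 5.45 CPM elsewhere. Its intervals in this cluster (4.60 to 15.6 and 6.75 to 30.8 CPM) overlap those of the Ebf2 and Lmx1a cluster in both libraries. The intervals of Npy1r in this cluster (22.5 to 42.1 and 13.5 to 43.4 CPM) overlap those of the Hmcn2 cluster in both libraries. The cluster is named by leading genes, which does not place either receptor on orexin neurons. Neurons with 3 or more UMIs of Hcrt, 14 and 2 nuclei, had 0 UMIs of Npy1r and of Npy2r. That allows levels of up to 61.3 and 315 CPM, above those of either receptor in this cluster. A haemoglobin gene, Hbb-bs, was also among the leading genes of this cluster. Without it and the Hmcn2 cluster, which had an ependymal marker, Npy1r averaged 10.5 CPM over neurons in place of 13.8.

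Npy5r was less even between libraries. In the Vipr2 and Prok2 cluster it had 5 UMIs in library 1 (28.0 CPM, 9.10 to 65.4) and 0 UMIs in library 2, which allows up to 26.6 CPM. Galr1 ranged from 0 to 32.3 CPM over the clusters with no cluster apart from the others, its highest value resting on 3 UMIs in the Avp and Oxt cluster of library 1. The other 5 receptors had at most 12 UMIs in any cluster of a library.

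**Figure D3:**
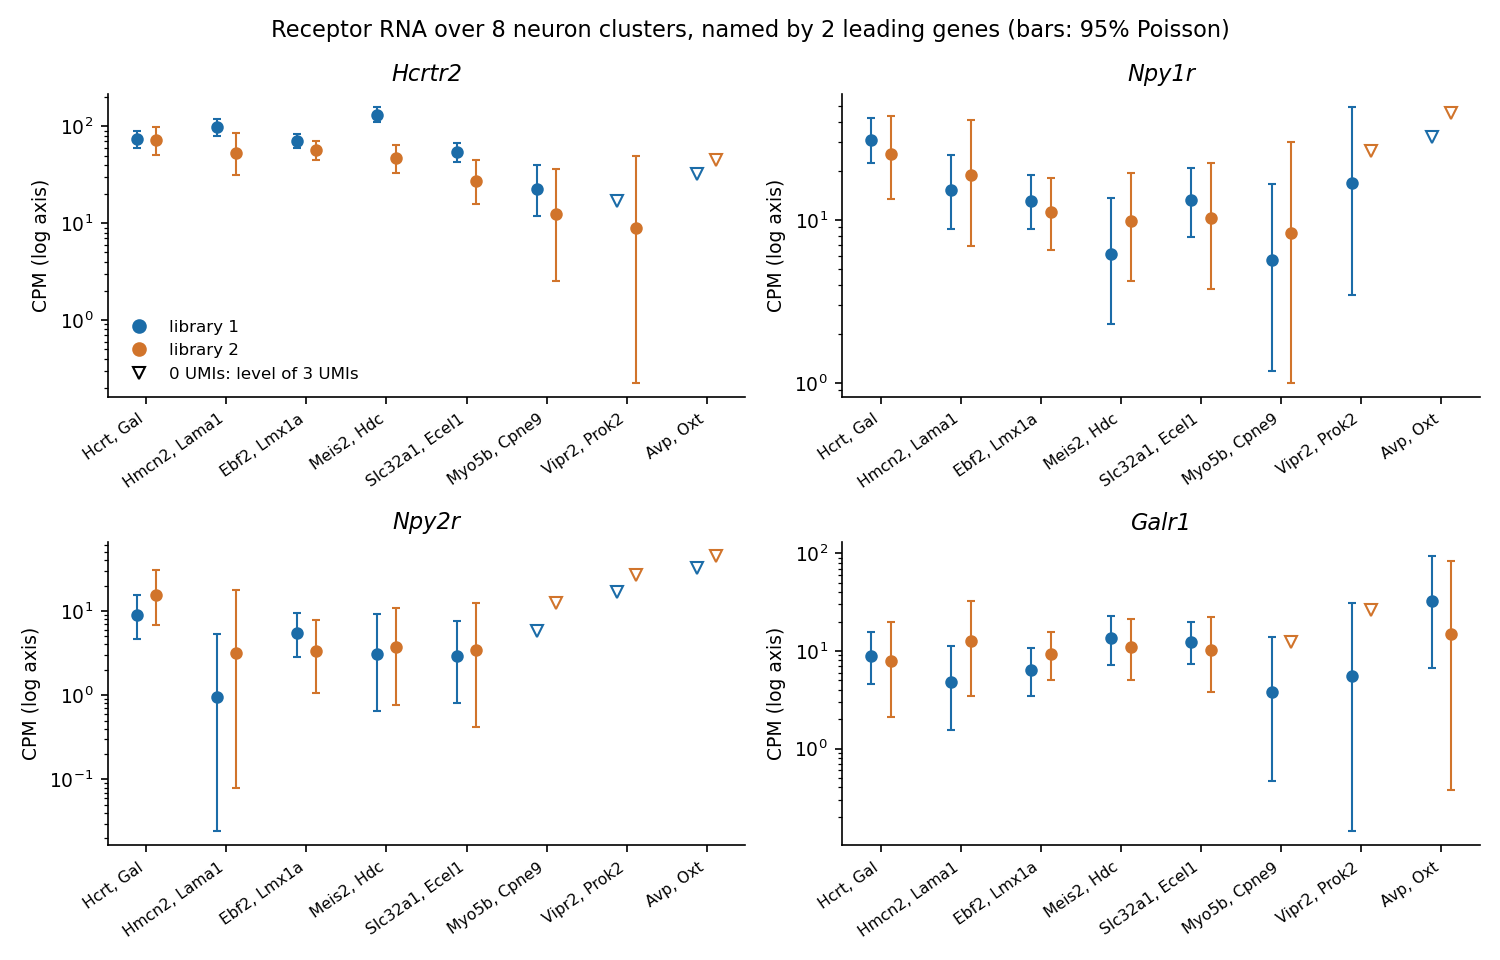
Levels (CPM, log axes) of Hcrtr2, Npy1r, Npy2r and Galr1 in 8 neuron clusters, each named by 2 of its leading genes, 1 point per library with its 95% Poisson interval; open triangles mark 0 UMIs at the level of 3 UMIs. Hcrtr2 falls away towards the Vipr2 and Avp clusters on the right. Among points with a UMI, Npy1r and Npy2r are highest in the Hcrt and Gal cluster on the left, with intervals that overlap other clusters.

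Genes with the most similar pattern over these 8 clusters were looked up by the smaller of the 2 libraries' correlations of log2(CPM + 5). For Hcrtr2 they were Glra3, a glycine receptor subunit (0.94), Spock3 (0.93) and Caln1 (0.93). Glra3 had 202 and 177 CPM in the Hmcn2 cluster, 141 and 156 CPM in the Meis2 and Hdc cluster and 21.6 and 0 CPM in the Avp and Oxt cluster. For Npy1r they were B4galt2 (0.95), Chka (0.92) and Lepr, the leptin receptor (0.90). Lepr had 54.2 and 39.1 CPM in the Hcrt and Gal cluster, where Npy1r was also highest, and 0 CPM in the Avp and Oxt cluster. The clusters come from the same libraries and differ in depth, and no likeness is given for the remaining 8 receptors, each with under 50 UMIs in at least 1 library.

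GABAergic and glutamatergic neurons were then compared. Neurons with Slc32a1, Gad1 or Gad2 and no Slc17a6 were taken as GABAergic (1078 and 563 nuclei), and those with Slc17a6 and none of the others as glutamatergic (768 and 323 nuclei). None of the 5 receptors with enough counts to be tested (of 10) passed the edgeR quasi-likelihood test at an adjusted p of 0.05, while 6.44% of the 12031 genes tested did, 278 of them higher (2.31%) and 497 lower (4.13%) in GABAergic neurons. At an unadjusted p under 0.05 there were 3 of these 5 receptors, against 15.3% of all genes tested, and DESeq2 called 0 after adjustment. The smallest adjusted p of the 5 was 0.256.

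Hcrtr2 had 62.7 and 46.3 CPM in GABAergic neurons, against 75.9 and 53.4 CPM in glutamatergic neurons (log2 difference -0.31 ± 0.14 SE, edgeR adjusted p = 0.256). It was lower in GABAergic neurons of both libraries, and the groups of 2 libraries overlap. Without the 2 neuron clusters that other classes' markers lead, its log2 difference was 0.03. Npy5r had 6.02 and 5.93 CPM in GABAergic neurons, against 1.66 and 4.60 CPM in glutamatergic neurons (log2 difference 1.12 ± 0.55 SE, edgeR adjusted p = 0.298). Those 2 groups do not overlap, but the glutamatergic values rest on 4 and 5 UMIs.

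Galr1 had 14.5 and 8.90 CPM in GABAergic neurons, against 5.81 and 10.1 CPM in glutamatergic neurons (log2 difference 0.73 ± 0.36 SE, edgeR adjusted p = 0.296), and the direction was that of library 1 alone. Npy1r had 14.9 and 14.2 CPM in GABAergic neurons, against 17.4 and 12.9 CPM in glutamatergic neurons (log2 difference -0.16 ± 0.28 SE, edgeR adjusted p = 0.886). Ntsr1 had 4.61 and 7.71 CPM in GABAergic neurons, against 2.90 and 6.44 CPM in glutamatergic neurons (log2 difference 0.41 ± 0.50 SE, edgeR adjusted p = 0.814). The difference of Npy1r was 0.09 without those 2 clusters, and that of Ntsr1 was -0.01 in the transplanted-labelled files. Hcrtr1, Npy2r, Mchr1, Oxtr and Avpr1a had between 0 and 13 UMIs in each group and library and did not enter the test.

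**Figure D4:**
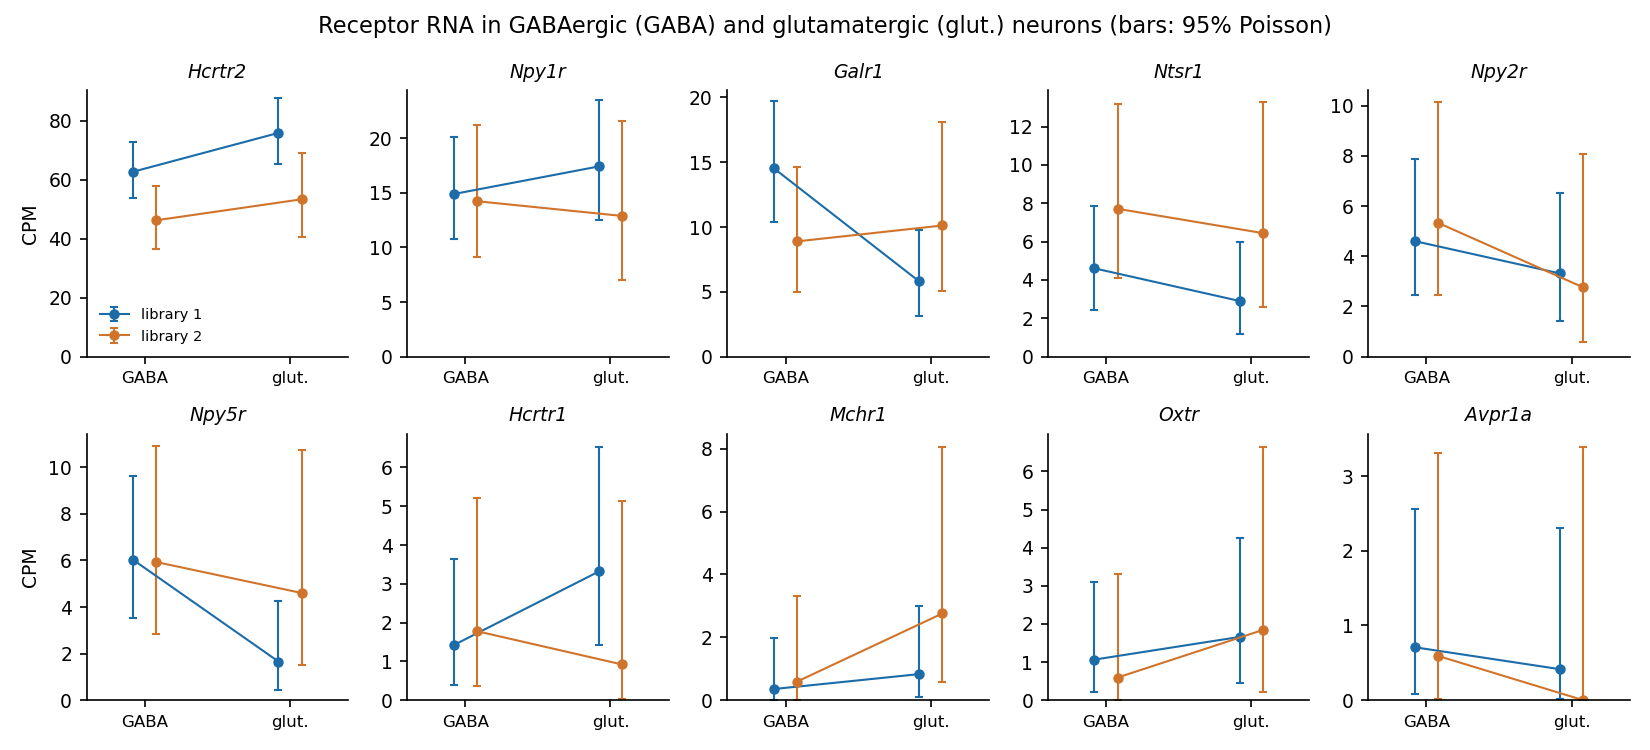
Levels (CPM, linear axes from 0) of the 10 receptors in GABAergic neurons (left in each panel) and glutamatergic neurons (right), 1 line per library with 95% Poisson intervals. Hcrtr2 slopes up towards glutamatergic neurons in both libraries, and Galr1 slopes in opposite directions in the 2 libraries.

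Further lists gave a few calls between these neurons, beside 2.31% of all genes tested called higher and 4.13% called lower. Of 54 further neuropeptide receptor genes, 20 were tested, 2 were higher in GABAergic neurons, 0 were lower and 18 did not pass, with a median log2 difference of 0.24 over the 20, against 0.0013 over all genes tested. The 2 were Npsr1, the neuropeptide S receptor, at 66.6 and 63.5 CPM against 43.1 and 25.8 CPM (log2 difference 0.77 ± 0.16 SE, edgeR adjusted p = 5.1e-05), and Vipr2, a receptor for vasoactive intestinal peptide, at 24.1 and 21.9 CPM against 11.2 and 13.8 CPM (0.90 ± 0.26 SE, edgeR adjusted p = 0.0126). For these receptors the GABAergic values of both libraries lay above the glutamatergic ones.

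Of 25 genes that carry receptor signals, all 25 were tested, with 4 higher, 4 lower and 17 that did not pass in GABAergic neurons and a median log2 difference of -0.058. Higher were Prkca, a protein kinase C (258 and 305 CPM against 179 and 168 CPM), Plcb1, a phospholipase C, Gnai1, an inhibitory G protein subunit, and Gnas, the stimulatory one, with log2 differences from 0.32 to 0.61. Lower were Rgs7, which shortens G protein signals (415 and 503 CPM against 674 and 711 CPM), the potassium channel subunits Kcnj3 and Kcnj6 that inhibitory receptors open, and Plcb4, with log2 differences from -0.65 to -0.36.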

How the data were processed

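Nuclear RNA of whole hypothalamus was measured in 4 samples, and each deposited matrix holds raw UMI counts per gene and nucleus made with Cell Ranger, per the file headers (version 5.0.1 per the submitters' processing notes). Those notes name the human build GRCh38, while the gene IDs are those of mouse; the mouse build of the files is not known here. Coordinates and start regions come from RefSeq on GRCm38.p6, where 9 of the 10 receptor genes had a window, and gene spans from RefSeq and transcript lengths from GENCODE M21. The receptors and gene lists were chosen with earlier results of these data known.

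A filter that asked for 300 genes or more and for no more than 5% mitochondrial UMIs removed 0 nuclei. Scrublet in scanpy 1.11.5 marked 48 of 6158 nuclei (0.779%; 0.150% in library 1 and 1.95% in library 2), which were left out, so that doublets of library 1 are in effect still present. Counts were scaled to 10000 per nucleus, reduced to 40 components over 3000 variable genes and clustered (leiden, resolution 1, 20 neighbours, igraph 0.11.9). A cluster took a class name when 3 or more fixed markers of that class were among its 10 leading genes, or, for neurons, when 6 of 12 markers were over 2-fold high. Names stand for neuron-like, astrocyte-like and so on.

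CPM is the count of a gene over all counts of the summed nuclei, scaled to a common total. Intervals are exact at 95%. Sums per library were tested with edgeR 4.0.16 (R 4.3.3; quasi-likelihood, TMM, low-count filter, library as a block because both groups are nuclei of the same library, Benjamini-Hochberg over all genes tested, threshold 0.05). Deviations of the GABAergic and glutamatergic sums of a library were correlated at 0.67 over 8715 genes. Peptide sets needed 3 UMIs and transcription factor or enzyme sets 2. The labels give no separate animals per library. With the library as a block, p-values measure how the difference between groups varied over 2 libraries. The estimate of that spread is shared in part across genes, and the spread between single animals cannot be read from it. The fits were also run on simulated data, with changes set only in genes with more counts than most of the receptors had. That run says nothing on receptors with few counts. Named genes were the 10 receptors, up to 4 genes per direction and list with the smallest p among those that passed, the 3 most similar genes per receptor and the marker set with the highest level. DESeq2 1.42.0 was an alternative. The alternatives for clusters led by another class in the GABAergic comparison, for the mixed cluster and for Hdc were chosen after seeing the data.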

Additional observations from a re-analysis of the deposited data

How the results depend on the processing

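No receptor was called in GABAergic against glutamatergic neurons under any alternative. Hcrtr2 in Avp and Oxt neurons was called in all 9 fits that tested it (edgeR or DESeq2 adjusted p from 0.000279 to 0.0229). Those fits reuse the same 2 libraries and are not separate support. With 0 UMIs of Hcrtr2 in Avp and Oxt neurons in the main setting, only a lower level could have been called. With 1 UMI more per marker set and without the deepest 2% of nuclei Hcrtr2 did not pass the low-count filter there, so those settings have no value. The smallest adjusted p in the GABAergic comparison over 11 edgeR or DESeq2 fits was 0.124 for Hcrtr2 and 0.109 for Galr1. Without the clusters led by another class, the log2 difference of Hcrtr2 was 0.03 in place of -0.31, and the cause was not tested.

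Leaving out a library leaves no test. The summed receptor level in neurons, 102.6 CPM, ran from 90.3 to 115 CPM with either library left out, and that in glia, 6.37 CPM, from 5.30 to 7.43 CPM. The glial sum was 12.3 CPM over nuclei with at least 1000 UMIs and 17.1 CPM with the mixed cluster counted as oligodendrocytes, both far below the neuronal one.

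Counts over all genes moved more, and the cause was not tested. Without the replicate block, which is the library here, 17 genes were higher and 26 lower in GABAergic neurons, 140 and 227 in Avp and Oxt neurons, 3 and 11 in Gal or Nts neurons, and 1 and 4 in Sim1 neurons. The block changed no receptor call. DESeq2 called 34 and 89 in GABAergic neurons, 12 and 17 in Gal or Nts neurons, 6 and 5 in Sim1 neurons, and 218 lower in Avp and Oxt neurons. At 2 UMIs of the transmitter genes 171 genes were higher in GABAergic neurons. With no low-count filter 142 were lower in Gal or Nts neurons and 40 in Sim1 neurons. With 1 UMI more per set Gal or Nts neurons had 13 higher and 29 lower, and the Sim1 set fell under 20 nuclei. Sim1 neurons had 57 higher in the transplanted-labelled files, 45 higher at 2 UMIs for every set and 15 lower without the deepest 2% of nuclei. Of 131 alternative counts and sums 106 stayed near the main value, and of 171 alternative values of single receptors 156 did. Depth limits Hcrtr1, Mchr1, Oxtr and Avpr1a, with 3 to 14 UMIs in neurons of a library.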
